A study of Homo sapiens with 6 samples.

Results

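APOL1 (ENSG00000100342) and APOL4 (ENSG00000100336) are apolipoprotein L genes, paralogs that lie close together on chromosome 22. They were chosen by their presence in the authors' deposited table of genes shared by 2 comparisons, in each of which an imatinib-resistant line was set against its parent. The table lists 674 genes, and 2 of them, APOL1 and APOL4, are members of the APOL family. Both comparisons were made in K562, an established human line from chronic myeloid leukaemia that depends on the BCR-ABL1 fusion kinase, the target of the drug imatinib. The 6 RNA sequencing libraries fall into 3 groups of 2, namely the imatinib-sensitive K562-WT and the imatinib-resistant K562-IR1 and K562-IR2. All were grown in RPMI1640 medium with serum and antibiotics, and for IR1 and IR2 imatinib was present continuously, at a dose not given in the sources used here, so resistance and drug exposure cannot be told apart. Whether each resistant line is 1 clone was not given in the sources used here, and in each group the label marks 1 library as a repeat, which may be a technical one.

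Apolipoprotein L proteins are lipid- and membrane-binding proteins. APOL1 is the secreted member: in human blood it travels on high-density lipoprotein particles and kills African trypanosomes by inserting into their membranes as an ion channel. The other members, APOL4 among them, are thought to act inside the cell, and in many human cell types genes of the family are switched on by interferons and tumour necrosis factor.

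The values used here are log2 fold changes that the authors deposited, 1 per gene and comparison. Values per library, depth, standard errors and p-values were not used here, so read depth is unknown and no fold below has an error or a test. The header names neither the line behind each column nor the group in the numerator. Here they are told apart as first and second column, and a negative fold may mean a lower level in the resistant line or in WT. Both comparisons share the WT libraries. The libraries are bulk RNA, in which fewer cells that express a gene and less RNA per cell cannot be told apart. Every gene of the table exceeds an absolute log2 fold change of 1.5 in both columns, so a large fold is a condition of being listed and not a finding about APOL1 or APOL4.

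For APOL1 the authors' deposited table gave a log2 fold change of -2.09 (first column) and -3.21 (second column), or folds of 4.26 and 9.24. For APOL4 the authors' deposited table gave -1.54 (first column) and -4.30 (second column), or folds of 2.91 and 19.8. Both genes thus carried the same sign as each other in each column, and both had the larger fold in the second. Of all listed genes, 173 (25.7%) were negative in both columns, against 2 of 2 members.

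The order of the paralogs was opposite in the columns. In the first column the fold of APOL1 was the larger, at 1.47 times that of APOL4, where the absolute log2 fold change of APOL4 in the authors' deposited table lay 0.55 below it. In the second column the fold of APOL4 was the larger, at 2.14 times that of APOL1, where its absolute log2 fold change in the authors' deposited table lay 1.10 above that of APOL1. Neither difference between the genes has an error, and neither was tested.

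**Figure D1:**
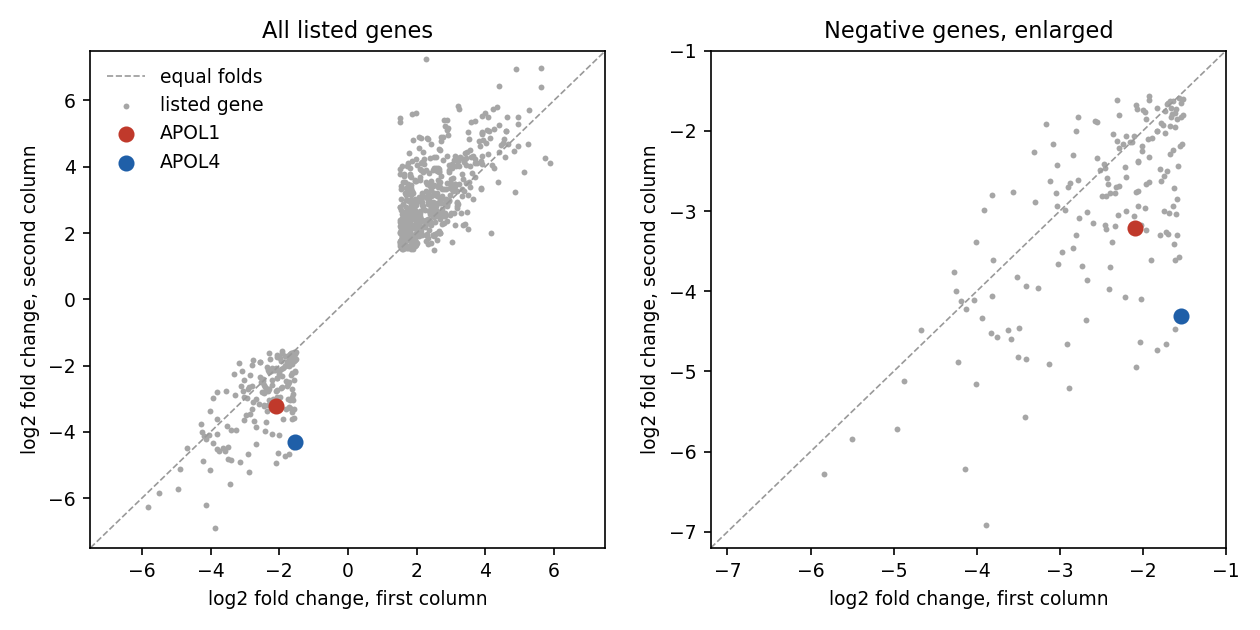
Log2 fold changes from the authors' deposited table, with the first column on the horizontal and the second on the vertical axis, 1 point per listed gene, and APOL1 and APOL4 in colour. The left panel holds all 674 genes and the right panel the negative ones, where both members lie below the dashed line of equal folds. APOL4, with a first-column value of -1.54, lies near the edge left by the limit of 1.5 for listed genes.

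The gap between the columns was wide for APOL4. Its absolute log2 fold change in the authors' deposited table was 2.76 larger in the second column than in the first, a 6.80-fold ratio of the folds. For APOL1 the same gap in the authors' deposited table was 1.12, a 2.17-fold ratio. The median gap was 0.47 over all listed genes and 0.34 over the negative ones in the authors' deposited table. A gap of over 1 in favour of the second column was held by 168 listed genes (24.9%) and by both members. Among the 173 negative genes it was held by 40.

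Ordered by this gap, APOL4 stood at place 6 and APOL1 at place 37 of the 173 negative genes. Just before APOL4 in that order was an unnamed long non-coding RNA with a gap of 2.86, and just after it HS3ST3B1, a heparan sulfate sulfotransferase, with a gap of 2.61, in the authors' deposited table. Next to APOL1 were SLCO4C1, an organic anion transporter, with a gap of 1.15, and ST8SIA4, a polysialyltransferase, with a gap of 1.09, in the authors' deposited table. Among the 128 negative protein-coding genes alone, APOL4 stood at place 3 and APOL1 at place 20.

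**Figure D2:**
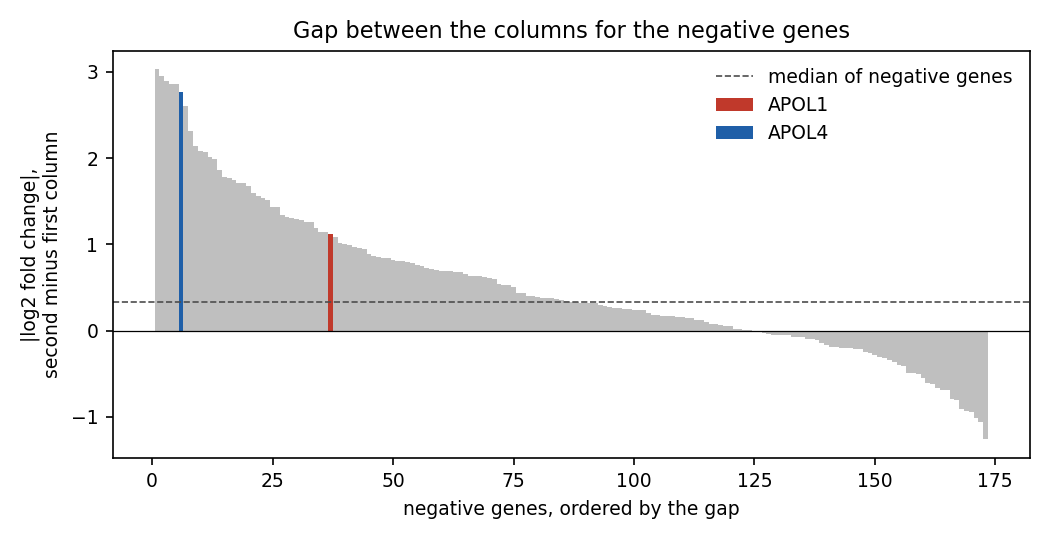
Gap between the columns for each of the 173 negative genes, as the second-column minus the first-column absolute log2 fold change (authors' deposited table), with 1 bar per gene in falling order. The APOL4 bar reaches 2.76 and the APOL1 bar 1.12, both above the dashed median of 0.34.

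The place of APOL4 changed more between the columns than that of APOL1. By the size of the first-column fold APOL4 stood at place 170 of the 173 negative genes, and by the second at place 28. This rise of 142 places was the largest rise among the negative genes of the table. Genes that fell in the second column come last in this order, however far they fell. The next was that of an unnamed pseudogene with 133 places, followed by NMU, the neuropeptide neuromedin U, with 121. APOL1 stood at place 97 by the first and at place 61 by the second column, a rise of 36 places that was number 31 in that order. By the mean of both columns the genes lay close, with APOL4 at place 56 and APOL1 at place 72.

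The first-column value of APOL4 lay near the lowest values that the table holds. Every listed gene exceeds 1.5 in both columns, so from there the second-column fold of APOL4 could hardly be smaller. Its gap and its change of place had little room to go the other way. Only 25 of the 674 genes had a smaller absolute fold in that column, of which ELMO1, an activator of Rac signalling, had the one nearest to 1.5 in the authors' deposited table. Just below APOL4 by size was MAP1B, a microtubule-associated protein, at 1.54 in the authors' deposited table. Just above it was the antisense RNA TRHDE-AS1, also at 1.54 in the authors' deposited table. Genes past the limit in 1 column only are not analysed here.

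The genes most like each member were sought among the protein-coding genes by the straight-line distance between pairs of log2 fold changes, over the 2 comparisons. SLCO4C1 was nearest to APOL1, with -2.03 and -3.17 in the authors' deposited table, at a distance of 0.076. For CD80, a ligand that costimulates T cells, the authors' deposited table gave -1.96 and -3.24. GABRA2, a subunit of the GABA-A receptor, stood at -2.10 (first column) and -3.07 (second column) in the authors' deposited table. FN1, which encodes fibronectin, and SLC9A2, a sodium-proton exchanger gene, completed the 5, at distances of 0.248 and 0.260. APOL1 thus lay among many genes with nearly the same pair of folds: 19 listed genes were within a distance of 0.5 of it.

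APOL4 had few such neighbours, with 2 listed genes within the same distance. Its first-column fold lies near the limit of 1.5, below which no gene is listed. Part of the range within that distance could therefore hold no gene, so its count is not on a par with that of APOL1. One was an unnamed pseudogene (ENSG00000215861), with -1.61 and -4.47 in the authors' deposited table. The other, NMU, was the nearest protein-coding gene, with -1.71 and -4.66 in the authors' deposited table, at a distance of 0.399. HS3ST3B1 came next, with -2.03 and -4.64 in the authors' deposited table. For SYT10, a synaptotagmin of vesicle release, the authors' deposited table gave -2.21 and -4.07. SAMSN1, an adaptor protein of blood cells, and PDE4DIP, a scaffold of centrosome and Golgi, were the others, at distances of 0.781 and 0.899. The paralogs were 1.23 apart, and 61 of the 125 other negative protein-coding genes with a symbol were nearer to APOL1 than APOL4 was. Seen from APOL4, 11 of these 125 were nearer to it than APOL1 was. With only a pair of values per gene, likeness here is a shared place in the table and nothing more.

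Of the 6 annotated APOL genes, APOL1 and APOL4 have rows in the table, and APOL2, APOL3, APOL5 and APOL6 are not analysed here. In GENCODE gene order the family runs APOL6, APOL5, RBFOX2, APOL3, APOL4, APOL2, APOL1, followed by MYH9, the heavy chain of non-muscle myosin. APOL4 is on the minus and APOL1 on the plus strand, with 1 protein-coding gene, APOL2, between them. The number of annotated genes of any type, antisense genes included, that overlap the span of APOL1 was 0, and for APOL4 it was also 0. The annotation is on GRCh38 and the authors used hg19, so it served for order, gene type and transcripts alone and coordinates are not printed.

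The listed genes nearest to the pair on the chromosome carried the opposite sign. On the far side of MYH9, with 7 protein-coding genes between it and APOL1, came NCF4, a subunit of the phagocyte NADPH oxidase, at 1.85 (first column) and 2.67 (second column) in the authors' deposited table. Directly after it came CSF2RB, the shared beta chain of the receptors for GM-CSF, interleukin 3 and interleukin 5, at 1.69 (first column) and 2.99 (second column) in the authors' deposited table. On the other side, with 12 protein-coding genes between it and APOL4, lay TIMP3, an inhibitor of matrix metalloproteinases, at 1.54 (first column) and 2.25 (second column) in the authors' deposited table. Listed genes on both sides of the pair were thus positive, and of the 16 protein-coding genes from APOL6 to CSF2RB 4 were listed.

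Chromosome 22 held 9 listed genes, of which 4 (44.4%) were negative and 5 positive, beside 25.7% negative over all listed genes. The 95% counting interval of that 44.4% ran from 18.9% to 73.3%, a range that holds the 25.7%. The APOL pair is part of the count, and 5 of the 7 listed genes outside the pair were positive. The 44.4% therefore does not show an excess of negative genes on this chromosome. The other negative ones were CECR2, a bromodomain protein of chromatin remodelling, at -4.0 and -3.38, and TBX1, a T-box factor of pharyngeal development, at -2.60 and -3.15, in the authors' deposited table. Pseudogenes SMPD4P1 (3.90 and 5.54) and SLC9A3P2 (3.99 and 5.63) had the largest positive folds of the chromosome in the authors' deposited table, and as copies of other genes they may hold reads of those. APOL4 had the widest gap between columns among the 9.

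**Figure D3:**
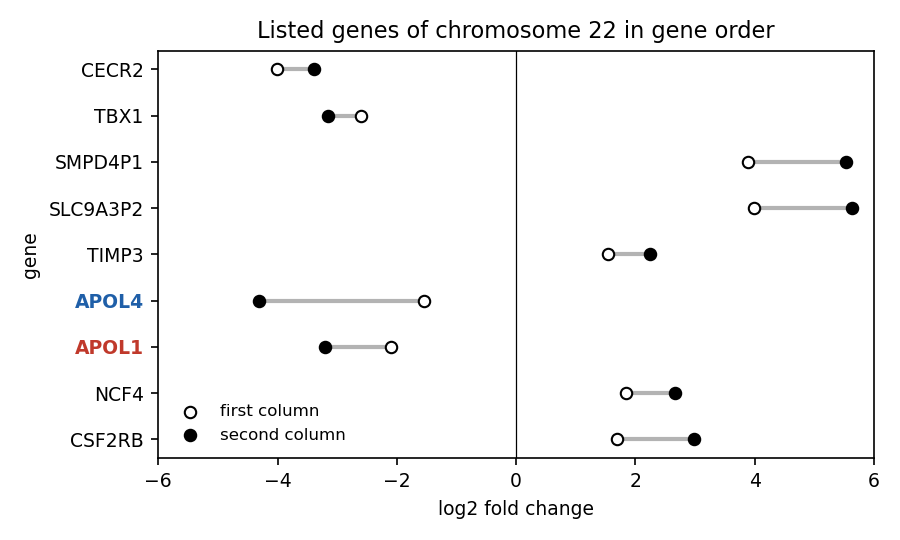
Log2 fold changes, from the authors' deposited table, for the 9 listed genes of chromosome 22, from top to bottom in gene order, with open circles for the first and filled circles for the second column. APOL4 and APOL1 stand side by side at negative values, from -1.54 to -4.30 and from -2.09 to -3.21, between TIMP3 and NCF4 at positive ones.

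The listed genes from a chosen list of interferon response carried the other sign than APOL1 and APOL4. That list does not hold every gene that interferons induce. Of a list of 47 such genes, 6 were listed, 6 of 6 positive, with median log2 fold changes of 3.48 (first column) and 3.68 (second column) in the authors' deposited table. GBP5, a guanylate-binding protein that coats intracellular pathogens, had the largest mean fold of them, at 3.89 (first column) and 5.06 (second column) in the authors' deposited table. Its relatives GBP2 (2.64 and 3.84) and GBP4 (1.95 and 3.56) were also positive in the authors' deposited table. OAS3, a sensor of double-stranded RNA, stood at 3.61 (first column) and 3.80 (second column) in the authors' deposited table, and IFITM3, which blocks entry of viruses, at 3.56 and 3.40. LGALS3BP, a secreted glycoprotein, was the last, at 3.41 (first column) and 2.28 (second column) in the authors' deposited table. None of these 6 shared the sign of the APOL pair, in a table where 501 genes are positive and 173 negative. From a chosen list of 26 targets of tumour necrosis factor and NF-kB signalling 0 genes were listed. That list is likewise partial, and other targets of this signalling may have rows in the table.

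Cell death genes were included because APOL proteins act on membranes and some have been linked to cell death. Of 26 genes 5 were listed, 3 negative and 2 positive. BCL2, the survival factor of the mitochondrial membrane, stood at -4.25 and -4.0, and BNIP3, a mitochondrial protein of hypoxia and mitophagy, at -1.70 and -1.65, in the authors' deposited table. PYCARD, the adaptor of inflammasomes, was the third negative gene, at -1.71 (first column) and -2.50 (second column) in the authors' deposited table. MLKL, the pore-forming effector of necroptosis, was positive at 2.15 (first column) and 2.39 (second column) in the authors' deposited table, as was the inflammatory caspase gene CASP4 at 2.83 and 2.90. A gap of over 1 in favour of the second column was held by 0 of these 5 genes and by 3 of the 6 interferon genes (GBP5, GBP2 and GBP4), beside 24.9% of all listed genes.

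**Figure D4:**
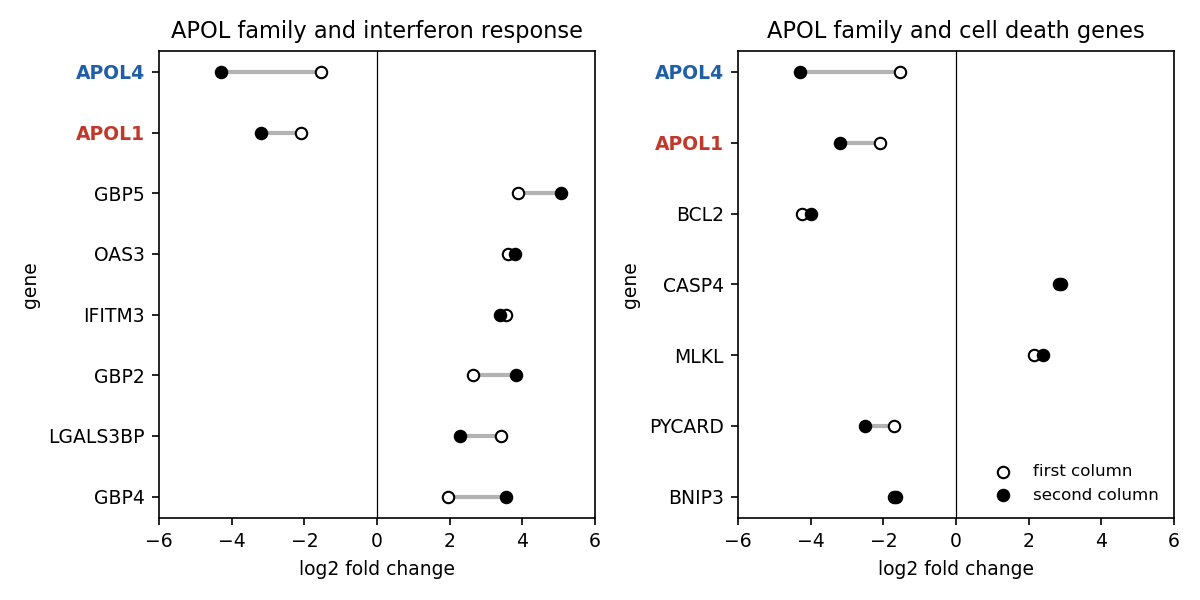
Log2 fold changes for APOL4 and APOL1 beside the listed genes from the lists of interferon response (left) and cell death (right). Values are from the authors' deposited table, with open circles for the first and filled circles for the second column. The interferon genes sit between 1.95 and 5.06, on the other side of 0 from the APOL pair, and the cell death genes lie on both sides.

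Genes of the classical apolipoproteins, which carry lipids in blood, were looked up as well. Of 21 other genes of apolipoproteins and their partners 0 were listed. Of 27 genes of lipid droplets and cholesterol handling 1 was listed, LPL, the lipoprotein lipase, at 2.51 (first column) and 2.47 (second column) in the authors' deposited table. For a list of this size a count of 0 says little, since most genes have no row in the table, and absence from it does not mean that a gene was unchanged. Among markers of the line, 4 of 11 erythroid genes were listed, 4 of 4 negative like the APOL pair, and of 7 markers of other cell types 2 were listed, both positive. Their part in the APOL values was not tested. Levels were not used, so the cell identity of the libraries could not be checked.

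The coding sequences of APOL1 and APOL4 each had another family member as the closest match. The longest coding sequence of each gene in GENCODE is 1242 bases for APOL1 and 1053 bases for APOL4. Aligned with each other, 65.9% of the paired bases were identical. APOL1 was closest to APOL2, with 78.0% identity, and APOL4 to APOL3, with 77.5%. Identity with APOL5 and APOL6 was between 54.5% and 60.1% for both genes, lower than that between APOL1 and APOL4 under this gap cost. With a looser gap cost APOL6 shared 76.6% with APOL1 and 76.9% with APOL4, against 75.9% between APOL1 and APOL4, so that order was lost.

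**Figure D5:**
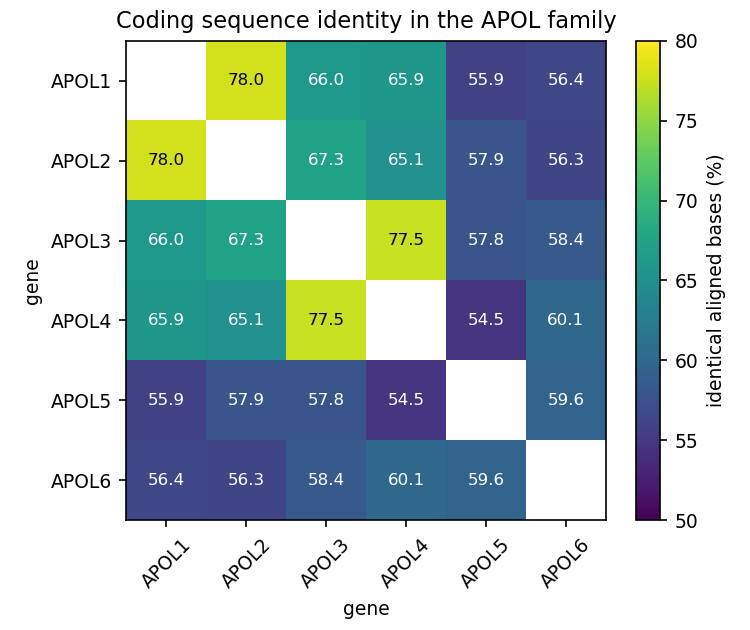
Share of identical bases (%) in pairwise alignments of the longest annotated coding sequence of each APOL gene, with genes on both axes and colour by the share. APOL1 pairs with APOL2 at 78.0% and APOL4 with APOL3 at 77.5%, while APOL1 and APOL4 share 65.9%.

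This bears on how far reads of one gene could be counted for another, which the sources used here do not settle, since neither the read length nor the treatment of reads with several matches is given in them. The longest run of bases found unchanged in transcripts of both APOL1 and APOL4 was 39. Between APOL1 and APOL2 it was 58, as it was between APOL1 and APOL3, and between APOL4 and APOL2 or APOL3 it was 43. Of all stretches of 50 bases in the transcripts of APOL1, 3.91% also occurred in transcripts of another gene, and of those of APOL4 0.696% did. For APOL1 they were spread over 109 other genes, most outside the family, with 14 stretches shared with APOL2 and 9 with APOL3. For APOL4 they were spread over 8 other genes. Matches on the opposite strand were not searched. The number shared between APOL1 and APOL4 was 0. With stretches of 100 bases, 0 of those of APOL1 and 0 of those of APOL4 occurred elsewhere. GENCODE lists 12 transcripts for each of the genes, covering 3519 exonic bases for APOL1 and 4377 for APOL4, and the table gives 1 value per gene, so which transcripts carry the folds was not resolved.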

How the data were processed

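The submitters' processing notes name DESeq2 3.5, HISAT2 2.1.0, Subread and featureCounts and the build hg19, with roles, settings and filters not given in the sources used here. Log2 fold changes were deposited by the authors for genes common to the comparisons of WT with IR1 and with IR2, in 2 columns. No test could be made from them, because values per library and errors were not used here. Samples were grouped by title.

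From these values were computed folds, gaps between columns, ranks, distances and counts by sign. Symbols matched 654 of 674 identifiers in a gene name table, and gene type, order and transcripts came from GENCODE 29 (GRCh38, 657 identifiers). Coding sequences were aligned in Biopython 1.88 (match 5, mismatch -4, gap open 20, extend 2, free ends), settings chosen after a looser gap cost had been seen. Scripts were tested on simulated data. The members, gene lists and named genes were chosen with earlier results of these data known. The rule for named genes took all APOL rows, up to 8 genes per list, the listed genes of chromosome 22, the 5 nearest protein-coding genes and the neighbours by gap; ELMO1, MAP1B and TRHDE-AS1 were named after their values were seen. Protein and promoter comparisons were planned and not run.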

Additional observations from a re-analysis of the deposited data

How the results depend on the processing

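No paired analysis was possible because the table holds the authors' fold changes and no values per library, and leaving out libraries could not be run for the same reason. The share of negative genes with a smaller fold or gap than APOL1 or APOL4 was compared with that among protein-coding genes, among genes of at least 2 in a column, and, chosen after seeing the data, among all listed genes. The share moved beyond its counting interval for the gap of APOL1 among protein-coding genes (84.4%, against 78.6%) and for its first-column fold among genes of at least 2 (34.0%, against 43.9%), by the choice of genes compared. The gaps between columns kept their sign: as a difference of linear folds they were 4.97 for APOL1 and 16.8 for APOL4, and relative to the median gap of all listed genes 0.64 and 2.29 (log2). With the sum of absolute differences as distance, 4 of the 5 nearest genes were shared for each member. Of the listed genes of chromosome 22, 57.1% of the protein-coding ones were negative, against 44.4% of all types. Over all listed genes of every type 25.7% were negative, and the share among all listed protein-coding genes was not computed. Both shares of chromosome 22 include the APOL pair, so neither is read as an excess of negative genes. With a looser gap cost (open 10, extend 0.5), also chosen after seeing the data, the identity of APOL1 and APOL4 was 75.9%, and APOL1 stayed closest to APOL2 (83.5%) and APOL4 to APOL3 (81.3%), while APOL6, with 76.6% to APOL1 and 76.9% to APOL4, was no longer below the identity of APOL1 and APOL4. Depth is unknown, so it sets no limit that could be given.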
